A study of Homo sapiens with 6 samples.

Results

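The 10 genes described here are CTGF, CYR61, ANKRD1, AMOTL2, LATS2, AJUBA, YAP1, WWTR1, TEAD1 and TEAD4, out of 58735 genes in the deposited table. They belong to the Hippo pathway and its transcriptional output. They were chosen by name, with their levels in these 6 libraries already known, so their values are given as a description without p-values. All 10 had a mean of at least 1 FPKM and were among the 12319 genes tested. FPKM is the number of fragments scaled to gene length and to library size, so levels can be compared between genes.

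RNA was sequenced from SK-MES-1, an established line from a human lung squamous cell carcinoma. The control group NC had 2 libraries, and KRT6A was transiently knocked down in the groups si1 and si2, also with 2 libraries each. The labels do not expand the names NC, si1 and si2, and give neither the reagents nor the time after treatment. Nothing says that the 2 libraries of a group came from separate cultures, so errors cover the spread between these libraries, which may be technical.

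The Hippo pathway is a kinase cascade that restrains growth. Its last kinases, LATS1 and LATS2, phosphorylate the coactivators YAP1 and TAZ, the product of WWTR1, which are then kept out of the nucleus or degraded. Unphosphorylated YAP1 and TAZ bind the TEAD transcription factors, which supply the contact with DNA, and switch on genes such as CTGF, CYR61 and ANKRD1. Some of their targets, among them LATS2 and AMOTL2, feed back on the pathway. RNA levels say nothing of phosphorylation or of where the proteins were.

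The libraries held 14948607 to 17401392 reads recovered from the deposited values, and 7.82% to 8.731% of them were mitochondrial. KRT6A had 0 reads in each of the 6 libraries, NC included, which allows up to 0.0583 to 0.0678 FPKM, so the targeted gene could not check the labels. Of 7 squamous markers KRT6A and DSG3 were at 0, KRT5, KRT14 and SOX2 averaged under 1 FPKM, and TP63 and PKP1 were present. The squamous list summed to 25.1 to 25.5 FPKM in NC, 23.5 to 24.9 in si1 and 21.6 to 23.8 in si2. Within it TP63 rose from 5.97 to 6.25 FPKM in NC to 10.9 to 12.8 in si2 (adjusted p = 0.00119), and PKP1 fell from 18.4 to 19.5 to 9.90 to 9.91 (adjusted p = 4.06e-04). The 6 markers of simple epithelium summed to 355 to 379 FPKM in NC, 370 to 376 in si1 and 264 to 277 in si2, with the cadherin CDH1 at 0.0387 to 0.256. The fibroblast list summed to 17.1 to 17.5 FPKM in NC, 20.0 to 25 in si1 and 22.9 to 23.4 in si2, most of it COL1A1, with COL1A2 at 0. Endothelial, leukocyte and striated muscle lists summed to at most 0.51, 1.71 and 0.103 FPKM in any library, with CDH5, CD3E, MYH6, MYH7 and ACTC1 at 0. The part of these markers in the results below was not tested.

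TEAD proteins bind the 6 letters GGAATG, read CATTCC on the other strand. RefSeq promoters (build GRCh38.p14) were matched for 7 of the 10 genes by symbol or older symbol, and CYR61, TEAD1 and TEAD4 were not matched. The 250 bases before 4 transcript starts are printed because they carry the letters in 2 direct targets and in 2 regulators, AMOTL2 and AJUBA, that were lower in both knockdown groups. They read 5′ to 3′ on the strand of the gene, with each match in capitals.
CTGF, chr6:131951373-131951622, minus strand: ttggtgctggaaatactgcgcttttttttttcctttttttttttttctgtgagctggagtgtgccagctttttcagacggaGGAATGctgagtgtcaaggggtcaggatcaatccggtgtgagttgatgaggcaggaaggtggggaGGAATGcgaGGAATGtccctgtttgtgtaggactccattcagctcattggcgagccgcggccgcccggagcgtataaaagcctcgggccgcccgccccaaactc
ANKRD1, chr10:90921088-90921337, minus strand: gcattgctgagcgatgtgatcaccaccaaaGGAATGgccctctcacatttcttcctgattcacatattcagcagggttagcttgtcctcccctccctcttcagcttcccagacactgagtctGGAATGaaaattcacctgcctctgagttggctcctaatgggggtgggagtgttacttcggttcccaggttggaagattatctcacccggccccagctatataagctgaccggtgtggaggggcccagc
AMOTL2, chr3:134374448-134374697, minus strand: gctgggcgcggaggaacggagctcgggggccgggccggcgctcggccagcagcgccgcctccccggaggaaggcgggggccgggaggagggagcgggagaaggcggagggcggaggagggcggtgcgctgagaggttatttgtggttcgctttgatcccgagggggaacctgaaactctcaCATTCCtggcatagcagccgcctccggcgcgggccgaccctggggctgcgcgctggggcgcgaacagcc
AJUBA, chr14:22976843-22977092, minus strand: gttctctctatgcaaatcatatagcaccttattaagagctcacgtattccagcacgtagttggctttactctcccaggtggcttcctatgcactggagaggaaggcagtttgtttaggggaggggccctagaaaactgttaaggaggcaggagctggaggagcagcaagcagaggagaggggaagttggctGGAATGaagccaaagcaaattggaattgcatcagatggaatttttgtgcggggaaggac

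CTGF had 3 matches, at positions −169, −104 and −95 from its start, all on the strand of the gene. ANKRD1 had 2, at −220 and −128. AMOTL2 had 1 at −69, on the other strand, and AJUBA had 1 at −59, each at only 1 of the 2 starts listed for the gene. YAP1 had 1 at −162, while LATS2 and both starts of WWTR1 had none in this window. Of 35116 promoter windows of the same length, 11.9% held at least 1 match, 0.928% at least 2 and 0.0797% at least 3. A match is a description of the letters and does not show that a TEAD protein bound there.

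**Figure D1:**
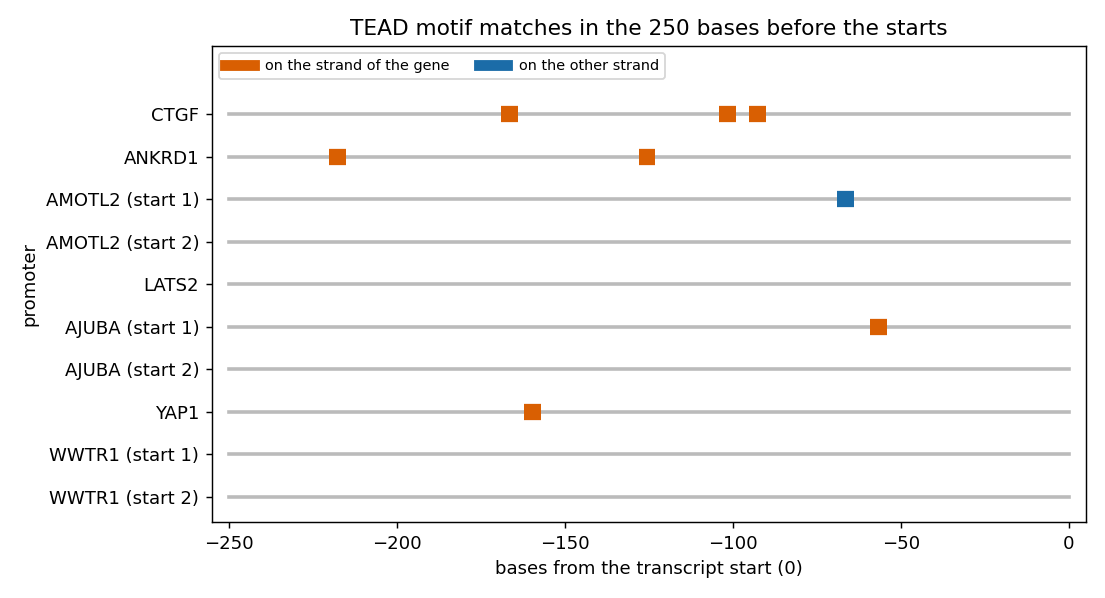
Matches to the TEAD letters (coloured blocks) in the 250 bases before each RefSeq transcript start, 1 grey line per start and distance in bases on the x axis. CTGF carries 3 matches and ANKRD1 2, whereas LATS2 and WWTR1 carry none in this window.

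The 3 direct targets did not move together. CTGF, a secreted matricellular protein that promotes matrix deposition, stood at 37.7 and 36.8 FPKM in NC, 13.2 and 15.1 in si1, and 106 and 102 in si2. Its si1 libraries lay below both controls and its si2 libraries above both, with wide gaps and no overlap. Relative to the NC mean, CTGF was 2.63-fold lower in si1 and 2.79-fold higher in si2, and the si2 mean was 7.35 times the si1 mean. The log2 fold change was −1.34 in si1 and 1.46 in si2 (SE 0.0761 for each). These values rest on 504 to 3907 reads per library. Because si1 and si2 lay on opposite sides of NC, the log2 fold change of si1 and si2 together against NC was 0.06 (SE 0.0659).

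CYR61, the closest relative of CTGF in this set and also a secreted integrin ligand, behaved otherwise. It measured 67.9 and 68.4 FPKM in NC, 44.0 and 46.9 in si1, and 58.1 and 60.8 in si2. Both groups lay below the controls, si1 farther than si2, and the 3 groups did not overlap. The log2 fold change was −0.58 in si1 and −0.19 in si2 (SE 0.0608 for each). The ratio of CTGF to CYR61 was 0.538 and 0.556 in NC, 0.3 and 0.323 in si1, and 1.82 and 1.68 in si2. CYR61 was thus the more abundant of the pair in NC and si1, and CTGF in si2.

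ANKRD1, an ankyrin repeat protein of the nucleus and the sarcomere, was the target with lower levels in both groups by the widest margin. NC gave 45.7 and 45.6 FPKM, si1 13.1 and 17.9, and si2 19.8 in both libraries. All 4 knockdown libraries lay far below both controls. The mean was 2.94-fold lower in si1 and 2.31-fold lower in si2, with log2 fold changes of −1.51 and −1.17 (SE 0.129 for each). The 2 si1 libraries differed from each other more than the other pairs did, on 423 and 601 reads. CTGF and ANKRD1, which both carry more than 1 match to the TEAD letters in the promoters printed above, therefore lay on the same side of NC in si1 and on opposite sides in si2.

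**Figure D2:**
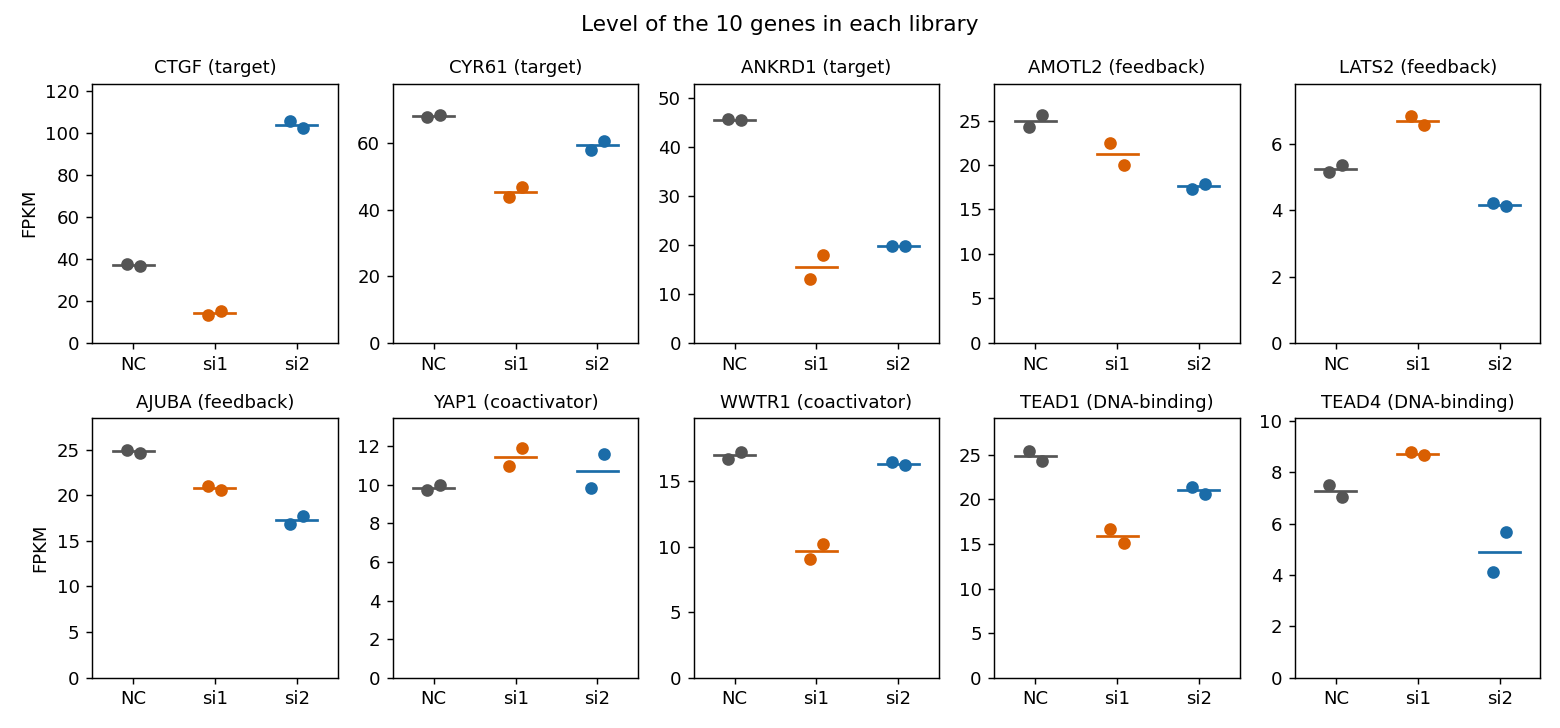
FPKM of each of the 10 genes (y axis, from 0) in the 2 libraries of NC, si1 and si2 (points) with the group mean (line), and the role of the gene in brackets. CTGF lies below NC in si1 and near 104 FPKM in si2, and ANKRD1 lies below NC in both groups.

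Among the regulators of LATS and YAP, AMOTL2 and AJUBA were lower in both groups and LATS2 split by group. AMOTL2, an angiomotin family scaffold that binds YAP1 at cell junctions, was at 24.3 and 25.6 FPKM in NC, 22.5 and 20.0 in si1, and 17.3 and 17.9 in si2. AJUBA, a LIM domain adaptor that binds the LATS kinases, was at 24.98 and 24.6 in NC, 21.0 and 20.6 in si1, and 16.8 and 17.7 in si2. For both genes every si2 library lay below every si1 library, and every si1 library below both controls. Their log2 fold changes were close to each other, at −0.23 (SE 0.0774) and −0.24 (SE 0.0637) in si1 and −0.48 and −0.50 in si2.

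LATS2, the kinase that inactivates YAP1 and TAZ, measured 5.16 and 5.37 FPKM in NC, 6.85 and 6.57 in si1, and 4.21 and 4.14 in si2. It was above both controls in si1 and below both in si2. The log2 fold changes of 0.30 and −0.28 (SE 0.0771 for each) were small beside that of CTGF, and their signs were the reverse of those of CTGF. LATS2 was the least abundant of the 10 genes in every group, on 349 to 625 reads per library.

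Of the 2 coactivators, WWTR1 differed in si1 and YAP1 little in either group. WWTR1 was at 16.7 and 17.3 FPKM in NC, 9.08 and 10.2 in si1, and 16.5 and 16.2 in si2. Only the si1 libraries stood apart by a wide margin, with a mean 1.76-fold lower than NC and a log2 fold change of −0.76 (SE 0.0767), against −0.05 in si2. YAP1 was at 9.72 and 9.98 in NC, 10.98 and 11.9 in si1, and 9.86 and 11.6 in si2. Its si2 range overlapped both other groups, and its log2 fold changes were 0.20 and 0.11 (SE 0.0922 for each). With WWTR1 lower, the ratio of YAP1 to WWTR1 was 1.17 to 1.21 in si1, against 0.578 to 0.581 in NC and 0.599 to 0.715 in si2. The sum of both coactivators was 26.5 and 27.3 FPKM in NC, 20.1 and 22.1 in si1, and 26.3 and 27.8 in si2.

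TEAD1 and TEAD4, 2 of the 4 TEAD factors that carry YAP1 and TAZ to DNA, differed in direction in si1. TEAD1 was at 25.5 and 24.4 FPKM in NC, 16.7 and 15.1 in si1, and 21.4 and 20.6 in si2. It was lower than NC in all 4 knockdown libraries and lowest in si1, with log2 fold changes of −0.62 and −0.23 (SE 0.0731 for each). TEAD4 was at 7.51 and 7.04 in NC, 8.78 and 8.66 in si1, and 4.10 and 5.68 in si2. Like LATS2 it lay above the controls in si1 and below them in si2, with log2 fold changes of 0.23 and −0.50 (SE 0.128 for each). TEAD4 had the fewest reads of the 10 genes, 147 to 333 per library, and its si2 libraries lay far apart relative to their mean.

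**Figure D3:**
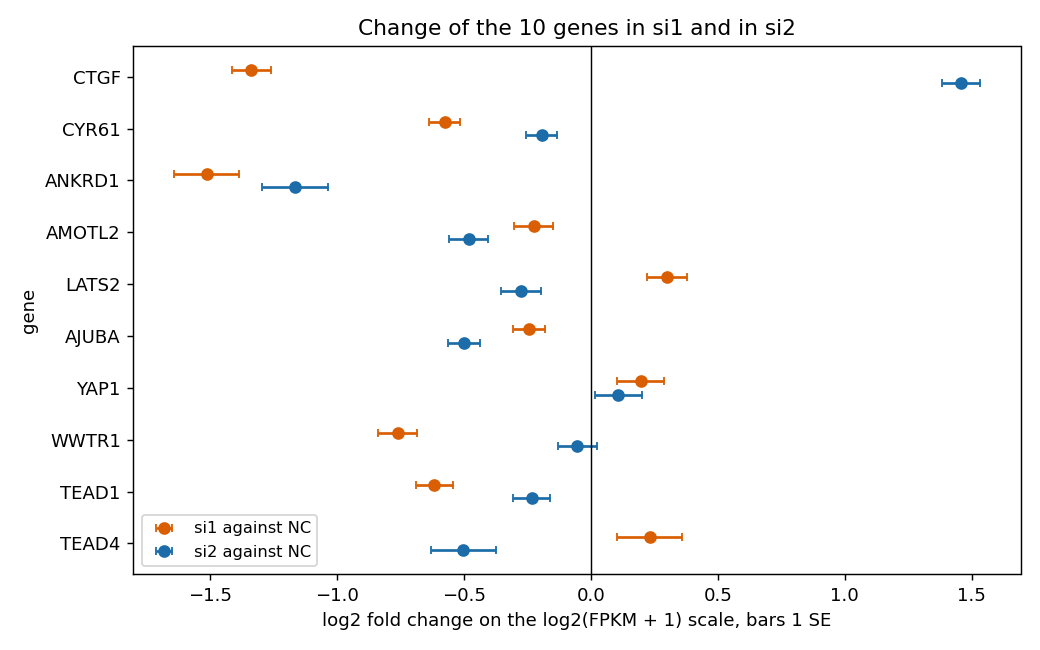
Log2 fold change against NC on the log2(FPKM + 1) scale (x axis) for si1 (orange) and si2 (blue), with bars of 1 SE, for the 10 genes. CTGF sits at −1.34 and 1.46, LATS2 and TEAD4 lie on opposite sides of 0 in si1 and si2, and ANKRD1 sits at −1.51 and −1.17.

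At an adjusted p under 0.05 over all genes (limma), 6 of the 10 genes were called lower and 0 higher in si1 and si2 together against NC. Of all genes tested, 11.8% were called lower and 8.73% higher there. In si1 against NC, 6 were lower and 1 higher (all genes 12.9% and 9.47%), and in si2 against NC 5 were lower and 1 higher (15.4% and 13.6%). Between si2 and si1, 4 were higher and 4 lower in si2 (19.9% and 18.6%). Nothing is read from these counts, since the genes were chosen with these contrasts known, and the contrasts with NC share its 2 libraries. The median log2 fold change of the 10 genes was −0.36, −0.41 and −0.25 in the contrasts with NC, beside −0.01, −0.01 and 0.00 over all genes. Without NC replicate 1 or without NC replicate 2 the count in si1 and si2 together went from 6 to 2, and with the 4 knockdown libraries as 1 group only ANKRD1 was called.

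In NC the order of levels was CYR61, ANKRD1, CTGF, AMOTL2, TEAD1, AJUBA, WWTR1, YAP1, TEAD4 and LATS2. The libraries of AMOTL2, TEAD1 and AJUBA overlapped, and the other neighbours did not. CYR61 lay at the 96.0 percentile of all genes tested in NC, ANKRD1 at 93.4 and CTGF at 91.3, while LATS2 lay at 43.7. In si1 ANKRD1 and CTGF came below AMOTL2 and AJUBA and overlapped in turn with TEAD1 and with each other. In si2 CTGF was the highest of the 10 and TEAD4 and LATS2 overlapped at the bottom.

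For 3 targets the protein-coding genes with the closest profile over the 6 libraries were listed, by Euclidean distance of centred log2(FPKM + 1) among 10761 genes. The closest to CTGF were EREG, IGFBP1 and PTX3, at distances of 0.233, 0.441 and 0.768 against a median of 2.81. EREG, an EGF receptor ligand, averaged 96.2 ± 1.88 FPKM (SD, n = 2) in the controls, 38.3 ± 2.39 in si1 and 234 ± 5.13 in si2. For ANKRD1 they were MATN3, SPOCK1 and ARF3 (0.284, 0.315 and 0.371, median 1.65), with SPOCK1 at 21.3, 7.67 and 9.49. For CYR61 they were MLX, TNPO1 and KCNQ5 (0.0949, 0.109 and 0.112, median 0.7). Among the 10 genes themselves the nearest to CYR61 was TEAD1 at 0.191, whereas the nearest to CTGF was WWTR1 at 2.16. These distances describe 6 libraries in 3 groups and carry no test.

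Beyond the 10 genes, a list of 17 other YAP and TEAD targets from the literature was examined, of which 15 were tested. FOXF2 and RBMS3 were under the filter, at 0.274 to 0.594 and 0.608 to 1.51 FPKM. In si1 and si2 together against NC, 9 fell and 2 rose, where 11.8% of all genes tested fell and 8.73% rose. This contrast takes the mean of the 2 groups, so a call need not hold in each, as with PTPN14 and CCDC80 below. Taken alone, si1 gave 11 that fell and 2 that rose (all genes 12.9% and 9.47%), and si2 gave 8 and 2 (15.4% and 13.6%). The median log2 fold change of the list was −0.43, −0.46 and −0.33 in this order, beside −0.01, −0.01 and 0.00 over all genes. AXL, a receptor tyrosine kinase, fell most, from 134 to 135 FPKM in NC to 34.8 to 36.9 in si1 and 72.7 to 76.1 in si2 (−1.37, SE 0.0509, adjusted p = 1.39e-04). ASAP1, an Arf GTPase-activating protein, fell by 0.81 log2 units (SE 0.0762, adjusted p = 0.00102), the ligand gene TGFB2 by 0.78 (SE 0.0583) and FJX1 by 0.69 (SE 0.105). These 4 genes fell in si1 and in si2 alike, each past the threshold in both. The call of FJX1 was lost over both groups without NC replicate 2 (adjusted p up to 0.0652), and in si1 without any 1 of the NC or si1 libraries (up to 0.157). With the 4 knockdown libraries as 1 group, AXL and TGFB2 lost the call over both groups (adjusted p = 0.168 and 0.069). With no filter on low values ASAP1 lost its call over both groups (0.0546) and in si1 (0.0734). FJX1 lost its call over both groups under either of these 2 settings.

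Against that direction, IGFBP3, a binding protein of insulin-like growth factors, rose from 33.4 to 33.9 FPKM in NC to 49.1 to 50.0 in si1 and 106 to 109 in si2 (1.10, SE 0.0478, adjusted p = 1.39e-04). CCDC80, a matrix protein, rose in si1, where it reached 9.31 to 9.48 FPKM from 2.60 to 2.67 in NC (1.52, SE 0.0965, adjusted p = 1.81e-04). In si2 it was at 2.61 to 3.15 (0.09, adjusted p = 0.517). NT5E, PTPN14 and F3, chosen after their values were seen, lay below NC in si1 and above it in si2, as CTGF did. NT5E, the surface nucleotidase CD73, was at 94.8 to 96.9 FPKM in NC, fell to 62.7 to 63.6 in si1 and rose to 138 to 143 in si2 (−0.59 and 0.54, difference 1.14, SE 0.0523, adjusted p = 3.02e-05). PTPN14, a phosphatase that binds YAP1, fell by 1.17 in si1 and was 0.22 above NC in si2 (adjusted p = 0.081), a difference of 1.39 (adjusted p = 6.58e-05). F3, tissue factor, fell by 0.68 in si1 and was 0.35 above NC in si2 (adjusted p = 0.0544), a difference of 1.03 (adjusted p = 6.90e-04). Without NC replicate 1 the fall of F3 in si1 had an adjusted p of 0.0567.

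Between si2 and si1, 7 of these 15 targets were higher in si2 and 5 lower, where 19.9% and 18.6% of all genes were. Their number called in si1 and si2 together, 11, went to 7 without NC replicate 2, to 5 with no filter on low values and to 1 with the 4 knockdown libraries as 1 group. In si1 it went from 13 to 8 without NC replicate 1, and between the groups from 12 to 6 without si2 replicate 1.

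**Figure D4:**
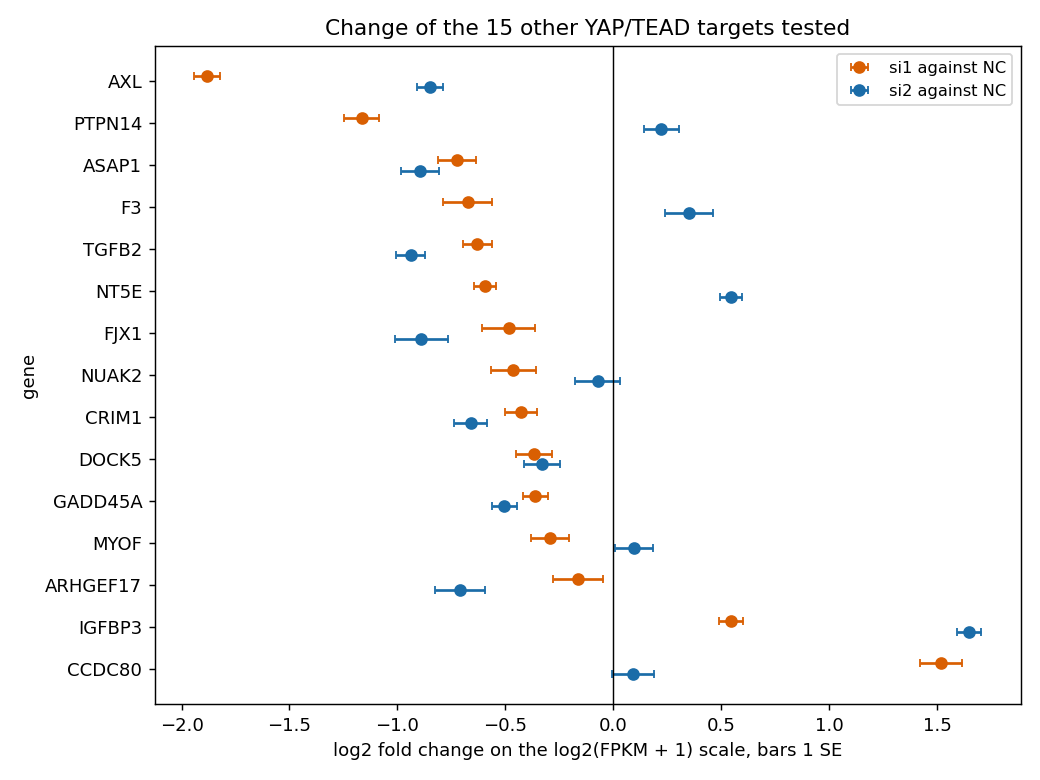
Log2 fold change against NC on the log2(FPKM + 1) scale (x axis) for si1 (orange) and si2 (blue), with bars of 1 SE, for the 15 other YAP and TEAD targets tested, ordered by si1. AXL, ASAP1, TGFB2 and FJX1 lie below 0 in both groups, whereas NT5E lies at −0.59 in si1 and 0.54 in si2.

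The kinases and upstream regulators of the pathway included calls in both directions. Of 17 listed, 16 were tested (DCHS1 was at 0.0445 to 0.154 FPKM), and in si1 and si2 together 2 rose and 6 fell (median −0.22), where 8.73% and 11.8% of all genes did. Alone, si1 gave 1 that rose and 6 that fell (all genes 9.47% and 12.9%), and si2 gave 2 and 7 (13.6% and 15.4%). The si1 count of 7 was 3 when NC replicate 1 was left out, 4 when NC replicate 2 was, and 3 with no filter. The si2 count of 9 was 4 when NC replicate 1 was left out, 5 when NC replicate 2 or either si2 library was, and 1 with no filter. FRMD6, a FERM domain activator of the pathway, fell from 13.9 to 14.4 FPKM to 7.07 to 7.23 in si1 and 9.17 to 10.1 in si2 (−0.70, SE 0.0654, adjusted p = 9.83e-04). NF2, which encodes merlin and recruits LATS to the membrane, fell by 0.54 log2 units (SE 0.0674), WWC1, which encodes the scaffold KIBRA, by 0.51 (SE 0.107) and the protocadherin gene FAT4 by 0.46 (SE 0.0805). MAP4K4, a kinase that acts on LATS, rose by 0.44 (SE 0.0635) and SAV1, the scaffold of the upstream kinases, by 0.37 (SE 0.0792). Neither was called in si1, at 0.18 and −0.11 (adjusted p = 0.123 and 0.423), and both were in si2, at 0.69 and 0.86 (adjusted p = 0.0011 for each). SAV1 reached 13.9 FPKM in both si2 libraries against 6.98 to 7.38 in NC, and was at 6.01 to 7.16 in si1. Without NC replicate 1 or without NC replicate 2 the count of 8 went to 2, and WWC1, FAT4, MAP4K4 and SAV1 lost their calls (adjusted p up to 0.133, 0.0956, 0.0541 and 0.14, SAV1 also without either si2 library). With no filter the count was 1, and with the 4 knockdown libraries as 1 group to 0.

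The STRIPAK complex brings the phosphatase PP2A to the upstream kinases. Of its 10 genes, all tested, 0 rose and 2 fell in si1 and si2 together, near the 8.73% and 11.8% of all genes. PPP2CA, the catalytic subunit, was at 36.2 to 37.96 FPKM in NC, 28.97 to 35.8 in si1 and 16.8 to 17.3 in si2 (−1.08 in si2, SE 0.0999, adjusted p = 6.55e-04). PPP2R1A, the scaffold subunit, fell by 0.64 in si2 (SE 0.0684, adjusted p = 0.00113). In si1 it stood at 41.9 to 45.1 FPKM, above the 37.8 to 38.8 of NC (0.18, adjusted p = 0.106). Over both groups the call of PPP2R1A (−0.23, adjusted p = 0.0356) was lost with the replicate block, and without either NC or either si2 library (up to 0.219). Against si1, PPP2CA was lower in si2 by 0.88 (adjusted p = 8.08e-04, 0.0537 with no filter) and PPP2R1A by 0.82 (adjusted p = 2.48e-04). Other genes of the complex named by the same rule were STRN, MOB4 and CTTNBP2NL, at 0.12, −0.09 and −0.10 in si1 and si2 together (adjusted p = 0.39, 0.547 and 0.465).

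Among 13 paralogs of the 10 genes, 6 were tested, and 1 rose and 0 fell in si1 and si2 together (all genes 8.73% and 11.8%). TEAD2 was at 13.1 to 13.7 FPKM in NC, rose to 22.6 to 23.9 in si1 (0.75, SE 0.0739, adjusted p = 9.18e-04) and was at 11.6 to 12.6 in si2. Over both groups TEAD2 was the 1 called (0.31, adjusted p = 0.0171), and not without NC replicate 1, NC replicate 2 or si2 replicate 1 (up to 0.138). TEAD3 rose in si1 too (0.37, SE 0.0814, adjusted p = 0.0195), but was not called there without NC replicate 1, NC replicate 2 or si1 replicate 1 (up to 0.131). In si2 limma called none of the 6, where 13.6% of all genes were called higher and 15.4% lower. Of the 6, 3 had an unadjusted p under 0.05. TEAD1 took 48.6% to 50.2% of the summed TEAD1 to TEAD4 level in NC, 28.7% to 29.7% in si1 and 48.8% to 50.4% in si2. TEAD2 took 25.8% to 27.3%, 42.7% to 42.8% and 27.4% to 29.6% in the same order, so it was the most abundant TEAD transcript in si1. The summed level was 50.1 to 50.7 FPKM in NC, 52.8 to 56.0 in si1 and 42.2 to 42.5 in si2. LATS1, the paralog of LATS2, was at 7.06 to 8.40 FPKM in all libraries (−0.03, SE 0.0667, adjusted p = 0.764). NOV, a relative of CTGF, was at 10.4 to 14.9, while WISP1, WISP2 and WISP3 stayed under 0.73 FPKM. AMOTL1 was at 1.71 to 3.34 FPKM (0.06, adjusted p = 0.72) and LIMD1, a relative of AJUBA, at 2.61 to 3.77 (−0.24, adjusted p = 0.125). WTIP and ANKRD23 were under the filter, at 0.466 to 1.25 and 0.119 to 0.378 FPKM. AMOT had 2 reads in 1 library and 0 in the others, and ANKRD2, the relative of ANKRD1, had 0 in all.

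**Figure D5:**
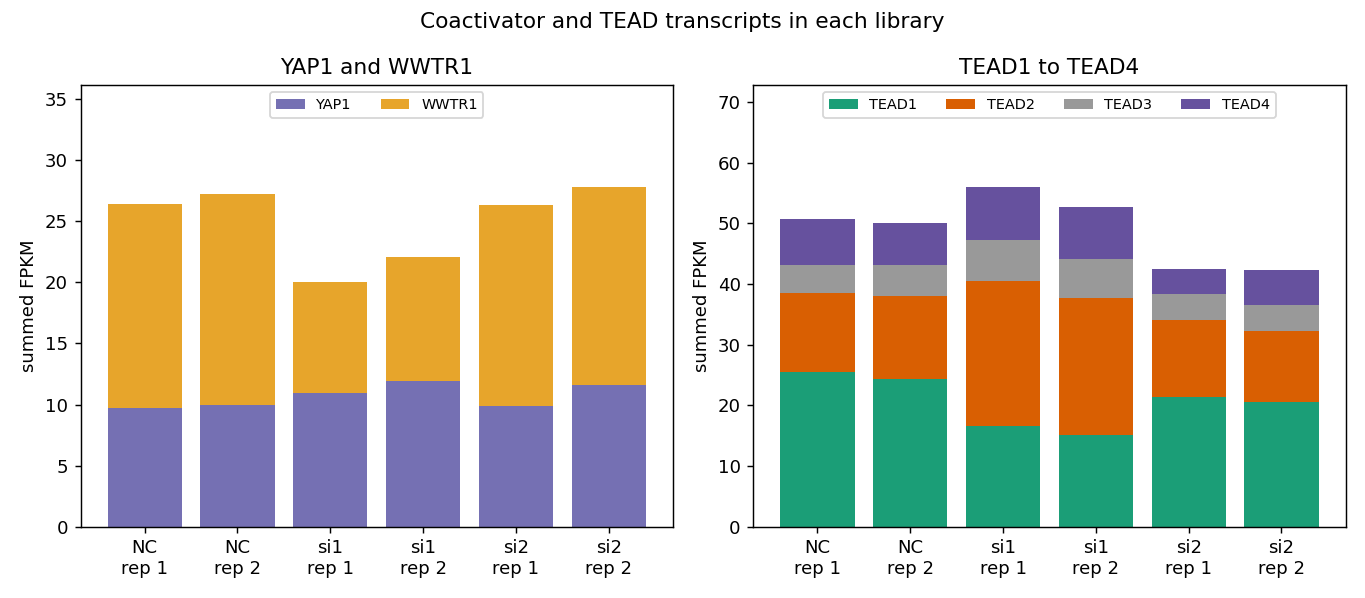
Summed FPKM (y axis, from 0) of the coactivators YAP1 and WWTR1 (left) and of TEAD1 to TEAD4 (right) in each of the 6 libraries. In si1 the WWTR1 and TEAD1 segments are shorter and the TEAD2 segment longer than in NC.

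The vestigial-like proteins compete with YAP1 and TAZ for TEAD. VGLL4 was the only 1 of 4 tested, at 3.61 to 5.51 FPKM (0.09, SE 0.104, adjusted p = 0.562), VGLL3 was at 0.325 to 0.734, and VGLL1 and VGLL2 had 0 reads in every library. CTGF and CYR61 also respond to the serum response factor SRF and its cofactors. Of 11 SRF targets 7 were tested, and 0 rose while 2, VCL and CNN2, fell in si1 and si2 together (all genes 8.73% and 11.8%). That count went to 1 without either NC library, where VCL lost its call (adjusted p up to 0.0943), to 1 with no filter, and to 0 with the 4 knockdown libraries as 1 group. VCL, which encodes vinculin, fell in si1 (−0.62, SE 0.0723, adjusted p = 0.0017) and CNN2, a calponin, in si2 (−0.92, SE 0.0651, adjusted p = 2.73e-04). Each was called in that group only, with VCL at −0.08 in si2 (adjusted p = 0.457) and CNN2 at 0.03 in si1 (adjusted p = 0.786). FHL2 fell in si1 (−0.52, adjusted p = 0.0268), and MYL9 and FLNA fell in si2 (−0.85 and −0.46, adjusted p = 0.00773 and 0.0215). The calls of FHL2 and FLNA were each lost without any 1 library of the groups compared (up to 0.126 and 0.114). That of MYL9 rested on 24 and 43 reads in si2, at 0.539 and 1.01 FPKM, and was lost with no filter (0.133). In si1 MYL9 was at 3.18 to 3.23 FPKM, above the 2.14 to 2.18 of NC (0.41, adjusted p = 0.0975). SRF itself was at 10.4 to 13.01 FPKM (−0.03, SE 0.0904, adjusted p = 0.846). The smooth muscle genes ACTA2, TAGLN, CNN1 and ACTG2 stayed under 0.65 FPKM.

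The 10 genes are scattered over the genome, with AMOTL2 and WWTR1 both on chromosome 3 and YAP1 and TEAD1 both on chromosome 11, in each case megabases apart. Their gene models differ widely, since CTGF and CYR61 span 3198 and 3202 bases with 73.1% and 76.7% of that in exons, whereas TEAD1 spans 269893 bases with 3.81%. In GENCODE release 29 the antisense gene AL133346.1 shares 195 exon bases with CTGF, and it averaged 0.202 FPKM. WWTR1 shares 795 with WWTR1-AS1, which averaged 0.0938, and YAP1 628 with AP000942.2, which was at 0. Whether the counting used strand was not given in the sources used here, so reads in those shared bases cannot be assigned to 1 gene. On the same strand, AMOTL2 shares 187 exon bases with RPL39P5 (0.0491 FPKM) and AJUBA 50 with AL132780.3 (0 FPKM). Strand would not separate the reads there.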

How the data were processed

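RNA sequencing of 6 SK-MES-1 libraries was deposited by the authors as 1 table of FPKM values per gene, with hg38 as the genome per the submitters' processing notes. Not given in the sources used here are the aligner, the counter and the strand setting. FPKM multiplied by gene length gave whole reads, within 0.001, for 100% of values, and depth is the sum of these reads.

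The 12319 of 58735 genes whose mean reached 1 FPKM were fitted with limma 3.58.1 in R 4.3.3 on log2(FPKM + 1), with a mean-variance trend and 1 coefficient per group over all 6 libraries (residual degrees of freedom 3, prior 4.03). A fold change on this scale understates the change of low genes. Two-sided p-values were adjusted by Benjamini-Hochberg over all genes tested and called under 0.05. The fit was also run on simulated reads in which si1 and si2 had the same fold changes. In these data the groups differed, so that run does not show how the fit behaves here. Values are mean levels or single libraries, and the SE is that of the fit. A p-value here measures no more than the spread between these libraries.

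The 10 genes and the lists were chosen with earlier results of these data known. From each list the up to 6 genes with the largest absolute log2 fold change in si1 and si2 together were named, with those not tested, and any other name is said to be chosen after its values were seen. Results of some listed genes are not reported here. Alternatives were the pseudocount, the filter on low values, the scaling, the replicate number as a block, the groups in the fit and leaving out each library. Promoter sequences came from RefSeq (GRCh38.p14), and gene models from GENCODE release 29, whose starts and ends equalled those in the table.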

Additional observations from a re-analysis of the deposited data

Results flagged for a closer look

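These results differed between si1 and si2, each given as the log2 value of si2 minus si1. Among the 10 genes, CTGF (2.80), LATS2 (−0.58) and TEAD4 (−0.74) had every si1 library on one side of both NC libraries and every si2 library on the other. They are given without a p-value, as a description, because the genes were chosen with their levels known. All 3 were among the genes called between si2 and si1 in the fit, where 19.9% of all genes were higher and 18.6% lower. Nothing is read from these calls, since the 3 genes were picked by the same values.

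The genes below passed the test of the difference itself (limma, adjusted over all genes), as did 19.9% of all genes as higher and 18.6% as lower. They are the named genes of each list, not all that passed. PTPN14, NT5E and F3 were chosen after their values were seen, so their p-values are a description only. Among other YAP and TEAD targets, si2 was higher for PTPN14 (1.39, adjusted p = 6.58e-05), NT5E (1.14, adjusted p = 3.02e-05), IGFBP3 (1.10, adjusted p = 4.36e-05), AXL (1.03, adjusted p = 6.23e-05) and F3 (1.03, adjusted p = 6.90e-04). It was lower for CCDC80 (−1.43, adjusted p = 1.17e-04), FJX1 (−0.40, adjusted p = 0.0369) and TGFB2 (−0.31, adjusted p = 0.0112). Among pathway regulators it was higher for SAV1 (0.98, adjusted p = 3.82e-04), MAP4K4 (0.51, adjusted p = 0.00207), FRMD6 (0.38, adjusted p = 0.00757) and NF2 (0.25, adjusted p = 0.0408). Of the 16 regulators tested, 7 were called higher in si2 and 3 lower. The 3 lower ones were not among the genes named by the rule.

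In the STRIPAK complex si2 was lower for PPP2CA (−0.88, adjusted p = 8.08e-04) and PPP2R1A (−0.82, adjusted p = 2.48e-04). It was higher for MOB4 (0.48, adjusted p = 0.0125) and CTTNBP2NL (0.37, adjusted p = 0.0278). Among paralogs it was lower for TEAD2 (−0.89, adjusted p = 2.44e-04), TEAD3 (−0.49, adjusted p = 0.00373) and NOV (−0.32, adjusted p = 0.045), and higher for AMOTL1 (0.56, adjusted p = 0.00825). Among SRF targets it was lower for MYL9 (−1.26, adjusted p = 0.00103) and CNN2 (−0.94, adjusted p = 1.26e-04), and higher for VCL (0.54, adjusted p = 0.0016) and FHL2 (0.44, adjusted p = 0.0305).

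Some of these calls rested on single libraries. Those of FJX1, NF2, NOV and FHL2 were each lost on leaving out any of 5 of the 6 libraries (adjusted p up to 0.169, 0.169, 0.192 and 0.154), the exceptions being si2 replicate 2 for FJX1, si1 replicate 1 for NF2 and NOV, and si2 replicate 1 for FHL2. CTTNBP2NL was lost without si1 replicate 2 or si2 replicate 2 (up to 0.143), MOB4 without si2 replicate 2 (0.0676), and FRMD6 and TGFB2 without si2 replicate 1 (0.0574 and 0.0737). With the replicate block NF2 and NOV were not called (adjusted p = 0.068 and 0.0657). With no filter on low values none of the genes named in this paragraph was called. Nor were MAP4K4, PPP2CA and AMOTL1 (adjusted p = 0.0509, 0.0537 and 0.0747).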

How the results depend on the processing

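With no filter on low values, the genes called numbered 499 in si1 and si2 together, 701 in si1, 736 in si2 and 1640 between si2 and si1, against 2529, 2758, 3578 and 4743. Of the 10 genes, 1, 4, 2 and 4 were then called (6, 7, 6 and 8 with the filter). Of the other YAP and TEAD targets 5 were called in si1 and si2 together, 7 in si1 and 6 between the groups (11, 13 and 12 with it). With the 4 knockdown libraries as 1 group, 84 genes, 1 of the 10 and 1 other target were called in si1 and si2 together. Leaving out each library in turn gave 701 to 2844 genes in si1 and si2 together, 1114 to 2443 in si1, 1490 to 4047 in si2 and 2973 to 4367 between the groups. The 10 genes gave 2 to 6 calls in si1 and si2 together, and the other targets 7 to 12 there, 8 to 13 in si1 and 6 to 11 between the groups. The cause was not tested.

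Signs turned when 1 library was left out for CCDC80 in si2 (−0.0105 to 0.193), FHL2 in si2 (−0.205 to 0.0499), NOV in si1 (−0.103 to 0.103), SRF in si1 (−0.126 to 0.173), FLNA in si1 (−0.357 to 0.0164), and between si2 and si1 for FAT4 (−0.131 to 0.0674) and SRF (−0.257 to 0.0418). Of the 10 genes, LATS2 in si1 and si2 together ranged from −0.01 to 0.04 over 13 alternatives and YAP1 between si2 and si1 from −0.19 to 0.02, and the other signs held.

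Libraries with the same replicate number showed little shared deviation between groups (correlation of deviations −0.052, 0.0503 and −0.0577). The labels do not say whether they were paired, and these correlations cannot settle it. With the replicate block the genes called numbered 2058, 2335, 3121 and 4314 in the same order, and the 10 genes gave 6, 5, 5 and 7 calls. The planned edgeR and DESeq2 fits were not run, because the deposited unit is FPKM, although whole reads could be recovered from it.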
